A study of Mus musculus with 2 samples.

Results

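Dividing CD4 T cells, with and without a transcript of Foxp3, were examined among the leukocytes that enter islets of NOD mice. The 367 cell barcodes described here came from 24413 barcodes in all, of which 22466 passed the filters on detected genes and mitochondrial transcripts and 3162 passed the gates for CD4 T cells. They were chosen by their own transcript counts. Unique molecular identifiers (UMIs, 1 per captured transcript molecule) had to include at least 1 of Cd4, at least 1 of Cd3d, Cd3e and Cd3g together, none of Cd8a and Cd8b1, at most 1 of Cd79a, C1qa and Lyz2 together, and at least 2 of Mki67 and Top2a together. Values of these genes, and of Foxp3 between its own classes, were therefore set by the choice and are given as description only. The WT NOD library held 167 of the barcodes, 38 with a Foxp3 UMI and 129 without. The library labelled NOD.Cxcl16-/- held 200, of which 50 had a Foxp3 UMI and 150 had none.

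Both groups were female mice aged 12 weeks. The first was WT NOD, and the second was NOD.Cxcl16-/-, labelled as lacking the chemokine gene Cxcl16. Islets were picked by hand after collagenase perfusion of the pancreas and dispersed without enzymes, and live cells positive for CD45 and negative for CD31 were sorted for droplet-based single-cell RNA sequencing. The labels do not give the number of animals, and each group has 1 library, so no difference was tested, cells were not treated as replicates, and every interval below (95% level) covers counting error only.

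NOD mice develop autoimmune diabetes in which CD4 T cells enter the islets and help CD8 T cells and macrophages to destroy beta cells. Regulatory T cells are CD4 T cells directed by the transcription factor FOXP3. They restrain that attack, and both they and conventional CD4 T cells divide in inflamed tissue after their receptors meet antigen. A dividing cell copies its DNA in S phase under E2F-driven genes and then switches on the genes of G2 and M phase, which build the spindle and separate the chromosomes. MKI67 marks chromosomes of cycling cells, and TOP2A untangles DNA before division.

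The libraries held 93553185 and 98681133 UMIs, WT NOD first here and in every pair of values below. They shared 45 barcode sequences, none of them among the 367. The targeted gene did not separate the libraries. Over all filtered barcodes Cxcl16 stood at 104 CPM in the WT NOD library (9608 UMIs) and at 102 CPM in the library labelled NOD.Cxcl16-/- (10046 UMIs), where CPM scales UMIs to the total UMIs of the cells summed. The counts do not show which part of the transcript was read, and the second library is called by its label throughout. No direction below is attributed to the genotype. Among the cycling CD4 barcodes Cxcl16 stood at 56.4 CPM (190 UMIs) and 33.5 CPM (143 UMIs), and 188 and 138 of those UMIs lay in the MHC class II-high barcodes described next.

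Markers of other cell types were summed in the cells. The gate limits Cd79a of the B-cell list and C1qa and Lyz2 of the macrophage list. Low sums of these 2 lists are therefore partly set by the choice of the cells. Over the 4 library and Foxp3 classes, 7 B-cell markers summed to between 7.54 and 25.9 CPM, 6 markers of natural killer cells to between 5.03 and 34.0 CPM and 9 macrophage markers to between 24.3 and 55.5 CPM. Antigen-presenting transcripts were concentrated in a few barcodes, as 29 of 167 (17.4%, interval 11.9 to 24.0%) and 36 of 200 (18%, 12.9 to 24.0%) held 20 or more UMIs of the MHC class II genes H2-Aa, H2-Ab1 and H2-Eb1, which present antigen on dendritic cells, macrophages and B cells. The same was found for 4.70% and 2.68% of CD4 T barcodes without a Mki67 or Top2a UMI, and for 7.01% and 8.27% of cycling CD8 T barcodes. The class II-high barcodes held T-cell transcripts at a lower level than the rest. The 3 Cd3 genes summed to 1390 CPM (1312 to 1471) and 1505 CPM (1430 to 1583) in them, beside 2780 CPM (2715 to 2846) and 2685 CPM (2629 to 2742) in the remaining barcodes. Their median was 37 and 40 Cd3 UMIs against 51.5 and 49.5, and 2 in each library held fewer than 5. They also carried dendritic-cell transcripts, with the conventional dendritic-cell gene Cst3 at 3266 and 2827 CPM, the growth-factor receptor Flt3 at 80.3 and 59.1 CPM, and the marker of type 1 dendritic cells Xcr1 at 27.9 and 24.0 CPM. The 9 dendritic-cell markers summed to 236 and 296 CPM there. In the other cycling barcodes they summed to between 0 and 6.13 CPM in the 4 library and Foxp3 classes. The 9 macrophage markers, 2 of them limited by the gate, summed to 64.0 and 144 CPM in the class II-high barcodes. In the other cycling barcodes they summed to between 9.20 and 20.3 CPM. The class II-high barcodes had a median of 29557 and 22354 UMIs against 15096.5 and 16463 in the rest, and held 25.5% and 23.4% of all UMIs of the cycling cells. Whether they are pairs of cells captured together was not tested. A doublet score ranked against simulated pairs placed 6 of the 29 and 20 of the 36 within the share of barcodes expected to be doublets. That share was set at 9.80% and 8.17% of all filtered barcodes. It took in 12.0% and 15.5% of all members and 4.62% and 1.84% of CD4 T barcodes without a Mki67 or Top2a UMI. Values below include the class II-high barcodes unless stated otherwise, and only some are also printed without them. Among CD4 T barcodes without a Mki67 or Top2a UMI, class II-high barcodes held 11.5% and 7.45% of all UMIs.

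**Figure D1:**
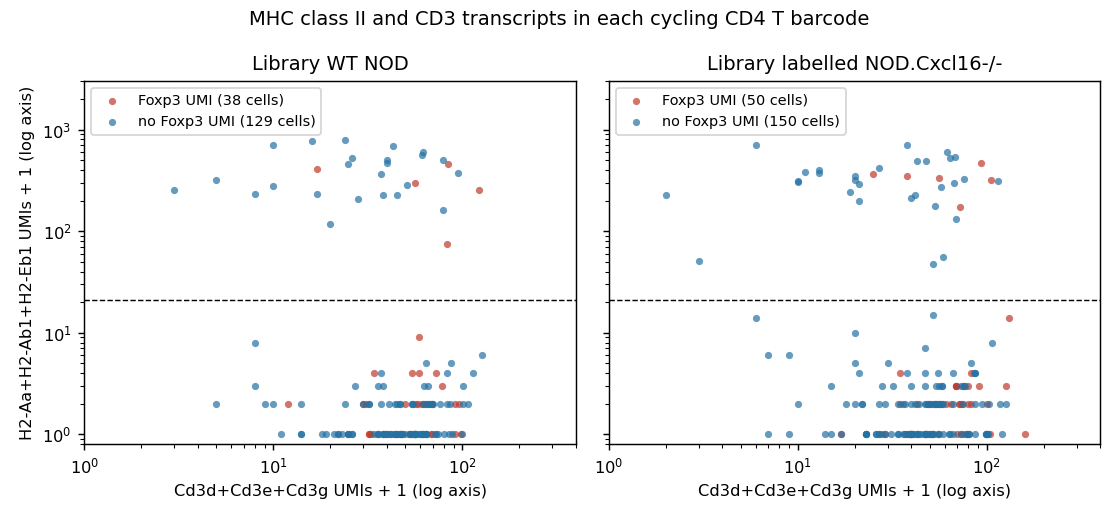
Each point is 1 cycling CD4 T barcode of the WT NOD library (left) or the library labelled NOD.Cxcl16-/- (right), with Cd3d+Cd3e+Cd3g UMIs plus 1 on the horizontal axis and H2-Aa+H2-Ab1+H2-Eb1 UMIs plus 1 on the vertical axis, both log axes, red with and blue without a Foxp3 UMI. The 29 and 36 barcodes above the dashed line at 20 UMIs form a separate band, and their range of Cd3 UMIs overlaps that of the barcodes below it.

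The gate for cycling cells took in barcodes with high and with low levels of other cell-cycle transcripts. Mki67 was detected in 77.2% and 76.5% of the members, Top2a in 90.4% and 88.5%, and both in 67.7% and 65.0%. Counted over the 42 S-phase and 50 G2M-phase genes other than Mki67 and Top2a, the median cell held 11.0 and 10.9 such UMIs per 1000 of its UMIs, against 2.61 and 2.63 in CD4 T cells with neither gate gene. At a level of 5 per 1000, set after the values were seen, 55 of 167 (32.9%, interval 25.9 to 40.6%) and 72 of 200 (36%, 29.4 to 43.1%) of the members lay below, as did 93.7% and 94.6% of the cells with neither gate gene. A further 10 and 13 members lay within 1 of that level. Members below it had a median of 2 gate UMIs and of 10239 and 11930.5 UMIs in all, and those above it had 12.5 and 19 gate UMIs and 20102.5 and 22354 UMIs in all. Of the class II-high barcodes 13 and 21 lay below. Just outside the gate, 186 and 203 CD4 T cells with exactly 1 gate UMI had summed G2M-list levels of 1855 and 1785 CPM. Just inside it, 43 and 58 cells with exactly 2 gate UMIs stood at 3080 and 2531 CPM, and 19 and 17 cells with 3 stood at 2259 and 1608 CPM.

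Cells with a Foxp3 UMI took a larger share of the cycling barcodes than of the others when every UMI was counted, and at an equal depth the shares overlapped within counting error. A Foxp3 UMI was found in 22.8% of members (38 of 167, interval 16.6 to 29.9%) and 25% (50 of 200, 19.2 to 31.6%). In CD4 T cells with 1 gate UMI the share was 11.8% and 21.7%, and in those with none it was 7.67% (93 of 1212) and 12.3% (147 of 1194). Members were also deeper, with medians of 16873 and 18459.5 UMIs against 4065.5 and 4434.5. B-cell barcodes, which should lack Foxp3, held it in 0.0788% and 0.444% at medians of 4586 and 4599 UMIs. After each CD4 T cell was thinned to 2000 UMIs, leaving out 124 and 44 shallower cells, the share with Foxp3 was 6.63% (interval 3.35 to 11.5%) and 6% (3.14 to 10.2%) in members. It was 4.92% (3.72 to 6.37%) and 7.29% (5.85 to 8.94%) in cells with no gate UMI. Pooled over cells and scaled to the total, Foxp3 stood at 26.4 CPM (21.2 to 32.5) in members and 26.1 CPM (22.2 to 30.4) in cells with no gate UMI of the WT NOD library. In the library labelled NOD.Cxcl16-/- it stood at 32.3 CPM (27.1 to 38.1) and 45.7 CPM (40.6 to 51.1).

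The converse share reads the same 2 counts from the other side. Of CD4 T cells with a Foxp3 UMI, 24.8% (38 of 153, interval 18.2 to 32.5%) and 20.7% (50 of 241, 15.8 to 26.4%) were cycling. Of those without, 9.14% (129 of 1412, 7.68 to 10.8%) and 11.1% (150 of 1356, 9.44 to 12.9%) were cycling. Cycling CD8 T cells made up 17.3% and 16.2% of the CD8 T cells. Of B-cell barcodes taken without a limit on gate UMIs, 4.97% (73 of 1470) and 7.18% (133 of 1853) passed the same gate. With the gates applied to thinned counts, the shares in cells with Foxp3 were 9.59% (7 of 73, interval 3.94 to 18.8%) and 4.31% (5 of 116, 1.41 to 9.77%). In cells without they were 3.44% (47 of 1368, 2.54 to 4.54%) and 4.94% (71 of 1437, 3.88 to 6.19%). At equal depth the intervals of the classes overlapped in both libraries, with 7 and 5 cells behind the values of the Foxp3 class.

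**Figure D2:**
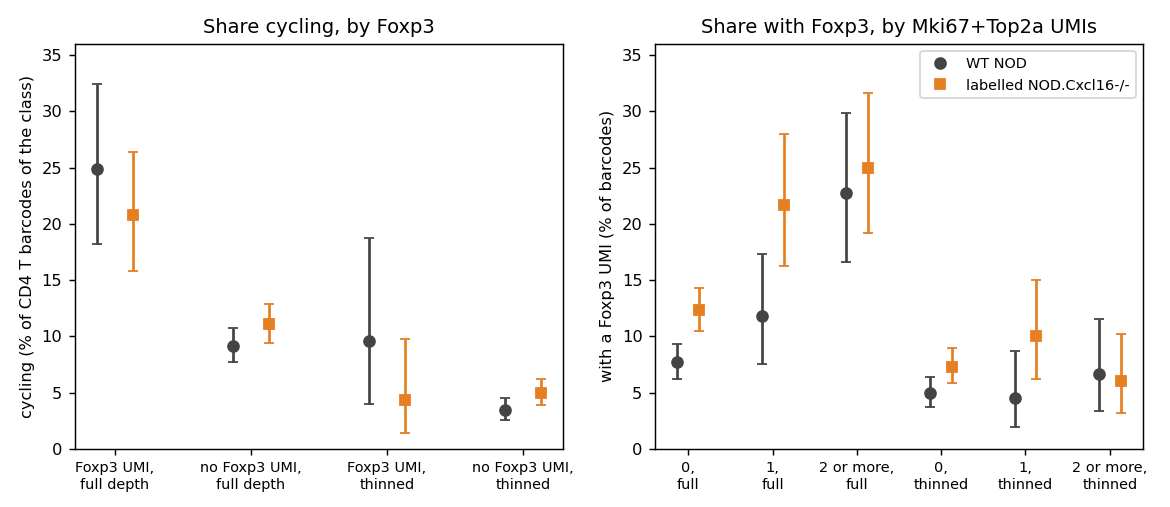
Left, share of CD4 T barcodes that are cycling (percent), with and without a Foxp3 UMI, at full depth and thinned to 2000 UMIs; right, share with a Foxp3 UMI (percent) by the UMIs of Mki67+Top2a; grey circles are WT NOD, orange squares the library labelled NOD.Cxcl16-/-, and bars are exact 95% binomial intervals. The full-depth difference of 24.8% and 20.7% against 9.14% and 11.1% is not kept in both libraries after thinning.

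The 2 gate genes belong to the cell cycle, and the levels of other cell-cycle transcripts in members are given here as a description of the cells the gate chose. Each class of members was compared with CD4 T cells of the same library and Foxp3 class that had no gate UMI, as a log2 ratio of CPM with 10 CPM added. A gene counted as higher or lower past a 2-fold ratio in all 4 pairs, among the 5288 genes with at least 20 UMIs in 1 sum of every pair. By that rule 200 genes were higher (3.78% of all measured) and 5 were lower (0.0946%). The counts follow from the gate, so nothing is read from them. The S-phase list had 24 of its 35 measured genes higher, the G2M-phase list, Mki67 and Top2a left out, 32 of 42, the replication-dependent histones 22 of 23 and the nucleotide-synthesis list 6 of 16, with none lower. Rrm1 and Rrm2, subunits of the ribonucleotide reductase that makes DNA building blocks, and the thymidine kinase Tk1 were among those higher.

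Ube2c, the ubiquitin-conjugating enzyme of the anaphase-promoting complex, was at 452 and 564 CPM in members with Foxp3 and at 379 and 483 CPM in those without. It was at 13.6 and 9.30 CPM, and at 9.73 and 8.13 CPM, in the matched cells with no gate UMI. Cdk1, the kinase that drives entry into mitosis, was at 173 and 176 CPM with Foxp3 and at 146 and 160 CPM without, against 0 to 4.13 CPM in the 4 comparison sums. Hells, a chromatin remodeller of S phase, was at 87.1 and 142 CPM with Foxp3 and at 146 and 119 CPM without, against 15.2 to 17.3 CPM. Log2 ratios over the 4 pairs ran from 4.29 to 4.89 for Ube2c, from 3.54 to 4.19 for Cdk1 and from 1.85 to 2.52 for Hells. With no Cdk1 UMI in 1 comparison sum, that ratio depends on the 10 CPM added. Pclaf, a partner of the replication clamp PCNA, was at 460 to 532 CPM in the 4 classes of members and Birc5, a subunit of the chromosomal passenger complex, at 367 to 471 CPM. Their levels in the comparison cells were at most 11.4 and 12.1 CPM.

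The sequences just upstream of Ube2c, Cdk1 and Hells are printed as examples, and the 3 were chosen for holding the letters searched for and for their ratios. Ube2c and Cdk1 were taken from G2M-phase genes with both cell-cycle homology letters and CCAAT. Hells was taken from S-phase genes with E2F letters. The presence of these matches in the 3 sequences was therefore set by the choice and is not a result. The 200 bases before each start site, from RefSeq on GRCm38.p6, lie at chr2:164769729-164769928 on the plus strand for Ube2c, at chr10:69352913-69353112 on the minus strand for Cdk1, and at chr19:38930790-38930989 on the plus strand for Hells. They are printed 5′ to 3′ in the direction of transcription, and capitals mark every match, on either strand, to the searched motifs: the CCAAT box, the letters TTTGAA or TTTAAA of the cell-cycle homology region, and the E2F letters TTTCCCGC or TTTGGCGC or TTCGCGCC.
Ube2c: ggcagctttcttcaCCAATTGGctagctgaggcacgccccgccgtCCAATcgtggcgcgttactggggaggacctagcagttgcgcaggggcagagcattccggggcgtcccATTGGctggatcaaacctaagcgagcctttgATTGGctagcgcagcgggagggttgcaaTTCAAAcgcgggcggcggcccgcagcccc
Cdk1: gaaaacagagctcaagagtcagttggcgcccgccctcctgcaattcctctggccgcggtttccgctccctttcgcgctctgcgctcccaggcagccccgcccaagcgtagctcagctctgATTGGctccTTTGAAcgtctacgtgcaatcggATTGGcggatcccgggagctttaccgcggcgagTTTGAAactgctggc
Hells: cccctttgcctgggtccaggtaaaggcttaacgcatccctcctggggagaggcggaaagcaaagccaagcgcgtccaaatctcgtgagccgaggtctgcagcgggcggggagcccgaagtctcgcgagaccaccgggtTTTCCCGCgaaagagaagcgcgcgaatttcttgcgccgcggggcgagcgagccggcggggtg
In Ube2c 2 opposite CCAAT matches overlap. Windows of 300 bases, from 250 before to 50 after the start, were found for 46 of the 52 G2M-phase genes and 30 of the 42 S-phase genes. The cell-cycle homology letters occurred in 78.3% of the G2M windows, 23.3% of the S windows and 27.8% of the windows of 27025 genes. The E2F letters occurred in 2.17% of the G2M windows, 40% of the S windows and 2.13% of all. CCAAT occurred in 76.1%, 70.0% and 37.9%. A match is a string of letters and was not read as a bound site.

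In the WT NOD library members with Foxp3 had a larger share of G2M-list UMIs than members without, and in the other library the classes were closer. G2M-list UMIs made up 74.1% (interval 73.2 to 75%) of all S-list and G2M-list UMIs in cells with Foxp3 and 64.6% (64.0 to 65.1%) in cells without in the WT NOD library, Mki67 and Top2a left out. In the library labelled NOD.Cxcl16-/- the shares were 68.8% (68.0 to 69.5%) and 67.9% (67.4 to 68.3%). Cycling CD8 T cells stood at 69.1% and 69.3%. With the gates applied to thinned counts, which left 7 and 5 cells with Foxp3, the shares were 84.8% and 79.6% with Foxp3 and 65.5% and 71.5% without. In levels, the S list summed to 3413 and 4073 CPM with Foxp3 and to 4209 and 3880 CPM without, and the G2M list to 9776 and 8970 CPM with Foxp3 and 7674 and 8189 CPM without. G2M transcripts outnumbered S transcripts in 30 of 38 (78.9%, interval 62.7 to 90.4%) and 38 of 50 (76%, 61.8 to 86.9%) cells with Foxp3. Without Foxp3 they did so in 87 of 129 (67.4%, 58.6 to 75.4%) and 106 of 150 (70.7%, 62.7 to 77.8%) cells. Counted by cell, the intervals of the classes overlapped in both libraries. The narrower intervals of the UMI shares count UMIs, many of which come from the same cell. No gene of either list was past a 2-fold ratio between the Foxp3 classes in both libraries. The median log2 ratio, Foxp3 class over the other, was -0.34 and 0.10 over the 42 S genes measured and 0.37 and 0.09 over the 48 G2M genes, beside 0.08 and 0.04 over all genes.

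**Figure D3:**
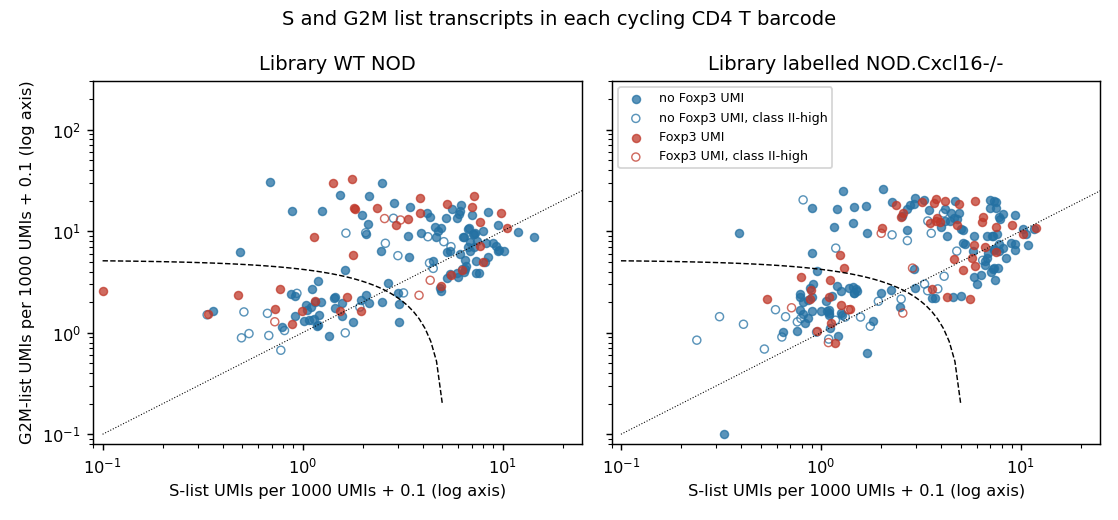
Each point is 1 cycling CD4 T barcode of the WT NOD library (left) or the library labelled NOD.Cxcl16-/- (right), with S-list and G2M-list UMIs per 1000 UMIs plus 0.1 on log axes, red with and blue without a Foxp3 UMI, open where MHC class II-high. Points below the dashed line (a sum of 5 per 1000), 55 and 72 barcodes, lie at levels seen in CD4 T cells outside the gate; the dotted line marks equal S and G2M levels.

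Cycling cells with a Foxp3 UMI carried the regulatory program of transcription factors and surface receptors above the level of cycling cells without. Within each library the 2 Foxp3 classes were compared as before, and a gene was higher or lower past a 2-fold ratio in both libraries. Of 8147 measured genes 33 were higher (0.405%) and 7 lower (0.0859%). The list of regulatory T-cell genes had 10 of 29 measured members higher and none lower, with medians of 1.02 and 0.78. One of the 10 is Foxp3 itself, which the classes fix at 0 in 1 of them.

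Ikzf2 encodes Helios, an Ikaros-family transcription factor of regulatory T cells. It stood at 950 (881 to 1023) and 985 CPM (930 to 1043) with Foxp3 and at 203 (186 to 221) and 195 CPM (180 to 211) without, log2 ratios of 2.17 and 2.28. All 38 and all 50 cells with Foxp3 had an Ikzf2 UMI. It was also present in 65.1% and 56.7% of the cells without Foxp3, and in 0.867% and 0.824% of B-cell barcodes at the lower depth given above. Its relative Ikzf4 (Eos) was at 70.8 and 51.9 CPM against 15.6 and 18.2. Il2ra, the high-affinity chain of the IL-2 receptor, was at 65.3 (48.2 to 86.6) and 64.5 CPM (50.9 to 80.6) against 17.1 (12.5 to 22.8) and 25.3 (20 to 31.6). By Foxp3 count, Ikzf2 was at 1028 and 918 CPM in the 22 and 20 cells with exactly 1 UMI, at 578 and 986 CPM in the 5 and 9 cells with 2, and at 1019 and 1034 CPM in the 11 and 21 cells with 3 or more. The median cell of the class held 1 and 2 Foxp3 UMIs, so cells without a UMI can include regulatory cells in which the transcript was not caught, and their number was not tested.

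The receptors and effector products followed. Tnfrsf18 (GITR) was at 306 and 269 CPM with Foxp3 and 144 and 104 CPM without. Tnfrsf9 (4-1BB), induced by antigen, was at 250 and 211 CPM against 89.9 and 76.0. Both are costimulatory receptors of the TNF-receptor family. Areg, a growth factor of tissue-repair regulatory T cells, was at 98.0 (76.7 to 123) and 102 CPM (84.9 to 122) against 21.2 and 27.6. Capg, an actin-capping protein, was at 197 and 208 CPM against 75.1 and 98.7, and Itgae, the integrin CD103, at 46.3 and 27.6 CPM against 16.7 and 8.77. Gzmb, the cytotoxic protease granzyme B, was at 43.6 and 67.0 CPM against 2.66 and 6.82, from 7 of 38 and 11 of 50 cells, with 34.4% and 42.5% of its UMIs in 1 cell. Ctla4, the inhibitory receptor for CD80 and CD86, was at 955 (886 to 1029) and 854 CPM (802 to 908) against 465 and 528, a ratio past 2-fold in the WT NOD library only (1.02 and 0.68). Nrp1, a marker of thymus-derived regulatory T cells, was close in both classes, at 55.8 and 44.4 CPM against 52.7 and 46.1.

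**Figure D4:**
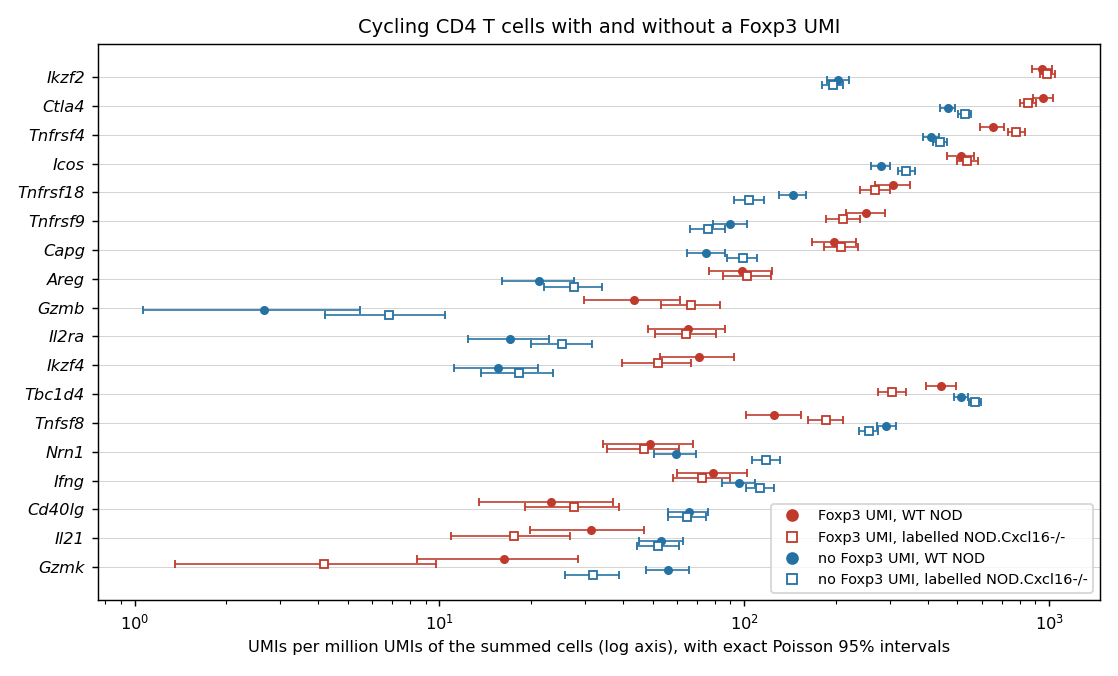
Levels of 18 genes in cycling CD4 T cells with (red) and without (blue) a Foxp3 UMI, in the WT NOD library (filled circles) and the library labelled NOD.Cxcl16-/- (open squares), as CPM on a log axis with exact Poisson 95% intervals. Ikzf2, Tnfrsf18, Tnfrsf9, Areg and Il2ra lie to the right in red in both libraries, while Cd40lg, Tnfsf8, Il21 and Gzmk lie to the right in blue.

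Genes outside the list were higher as well. Ifngr1, a chain of the interferon-gamma receptor, was at 490 and 488 CPM with Foxp3 and 136 and 181 without, and Ccr2, a chemokine receptor for inflamed tissue, at 136 and 80.4 CPM against 20.9 and 34.7. Satb1, a chromatin organiser, was at 264 and 213 CPM against 105 and 65.6, and Hopx, a homeodomain protein linked to regulatory T-cell function, at 70.8 and 66.2 CPM against 11.4 and 19.5. Phlpp1, a phosphatase that acts on AKT, was at 284 and 323 CPM against 97.1 and 91.9. Il18r1, the IL-18 receptor, was at 176 and 162 CPM against 63.7 and 74.0. Its ratio in the library labelled NOD.Cxcl16-/- went from 1.03 to 0.58 without the class II-high barcodes. Of the 33 higher genes 28 were also past the threshold without those barcodes, and 19 without the highest cell of each gene.

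The 7 genes lower in the Foxp3 class included a granzyme. Gzmk, a granzyme of effector and memory T cells, was at 16.3 (8.44 to 28.5) and 4.19 CPM (1.36 to 9.78) against 56.1 and 31.8, and Dapl1 at 10.9 and 3.35 CPM against 36 and 22.7. Both kept a ratio past 2-fold without the class II-high barcodes. The other 5, Aif1, Cxcl9, Ifitm1, Ifi205 and Zmynd15, did not, and Zmynd15 was named after its values were seen. Aif1 and Cxcl9 are genes of macrophages and dendritic cells. Aif1 went from ratios of -1.79 and -1.43 to 0.24 and 0.04, and Cxcl9 from -2.25 and -1.33 to 0.48 and -0.22. Without each gene's highest cell 5 of the 7 were still past the threshold, and 6 with the highest doublet scores removed. Those settings turned the order of the counts, to 19 higher and 32 lower and to 28 higher and 66 lower.

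Helper-cell lists had few genes past 2-fold between the Foxp3 classes. Over the follicular-helper list none of 13 measured genes was past the threshold, 4 had higher and 8 lower values with Foxp3 in both libraries, and the medians were -0.31 and -0.46. The type 1 list had 1 of 16 higher (Il18r1) and 1 lower (Gzmk), 6 with higher and 6 with lower values in both, and medians of 0.18 and -0.37. Of the list of type 2 and type 17 helper genes 5 of 15 reached 20 UMIs, and none was past the threshold. Of 11 measured inhibitory receptors, 5 had higher and 2 lower values with Foxp3 in both libraries, with medians of 0.20 and 0.15. Of 13 measured anergy-linked genes, 9 had higher and 4 lower values, with medians of 0.28 and 0.17. The medians over all genes were 0.08 and 0.04, and neither list had a gene past the threshold. The share of all genes on 1 side in both libraries is not given, so nothing is read from these counts of higher and lower values. The single genes that follow had lower values with Foxp3 in both libraries, and none differed 2-fold in both. Cd40lg, the CD40 ligand that activates B cells and dendritic cells, was at 65.6 and 64.9 CPM without Foxp3 and 23.1 and 27.6 CPM with it, ratios of -1.19 and -0.99 that became -1.46 and -1.93 without the class II-high barcodes. Il21, the cytokine of follicular helper cells, was at 53.5 and 52.3 CPM against 31.3 and 17.6. Tnfsf8, the CD30 ligand, was at 292 and 256 CPM against 125 and 185. The inhibitory receptors Pdcd1 (PD-1) and Btla were at 93.3 and 86.7 CPM against 54.4 and 60.3, and at 82.7 and 81.5 CPM against 34.0 and 44.4. Ifng, the main cytokine of type 1 helper cells, was at 96.0 and 113 CPM against 78.9 and 72.9. Nrn1, linked to T-cell anergy, was at 59.6 and 118 CPM without Foxp3 and 49 and 46.9 CPM with it.

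Cell by cell, Cd40lg was seen in 50.4% and 52.7% of cells without Foxp3 and in 31.6% and 26.0% of cells with it, Il21 in 38.0% and 40% against 10.5% and 18%, and Ifng in 47.3% and 55.3% against 34.2% and 28.0%. The share of B-cell barcodes with a UMI was at most 0.190% for Cd40lg, 0.127% for Il21 and 1.02% for Ifng. Il21 and Ifng were seen together in 21.7% and 24.0% of the cells without Foxp3 and in 5.26% and 8% of those with it. The median depth was 16192 and 20863 UMIs with Foxp3 and 16929 and 17850.5 without, so the cells with Foxp3 were the shallower in the WT library and the deeper in the other.

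Few genes were lower in members in all 4 pairs. Klf2, S1pr1 and Il7r were lower past 2-fold in both libraries only in members without Foxp3. The 5 genes lower in members in all 4 pairs were Dusp10, Ypel3, Sntb1, Cdk8 and Tmem64, the last named after its values were seen. Dusp10, a phosphatase that switches off stress kinases, was at 59.9 and 40.2 CPM in members with Foxp3 and 77.4 and 63.3 CPM in those without, against 176 and 109 CPM and 251 and 260 CPM in the matched cells with no gate UMI. Klf2, which drives expression of tissue-exit receptors, was at 129 and 113 CPM in members without Foxp3 against 556 and 506 CPM, and at 120 and 89.6 CPM in those with Foxp3 against 256 and 178 CPM, ratios of -2.02, -2.07, -1.04 and -0.91. S1pr1, the receptor for exit into lymph, had ratios of -2.13 and -1.70 without Foxp3 and -1.39 and -0.40 with it. Il7r, the receptor of the survival cytokine IL-7, had -2.28 and -2.12 without Foxp3 and -0.61 and -0.98 with it. Over the 9 measured genes of the naive and egress list the medians were -1.19 and -1.70 without Foxp3 and -0.50 and -0.75 with it. None of the 9 was past 2-fold in all 4 pairs. Members without Foxp3 thus had the more negative ratios in both libraries.

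Within the class with Foxp3, none of 25 measured genes of the regulatory list passed the threshold between cycling and non-cycling cells, though 21 had lower values in cycling cells in both libraries. Over all 5288 measured genes 37.7% did. The list's medians were -0.36 and -0.78, beside 0.01 and -0.10 over all genes. Other T-cell lists had like values. Of the general T-cell markers 8 of 10 were on the lower side in both libraries, with medians of -0.47 and -0.35, and of the receptors for IL-2, IL-7 and IL-15 it was 16 of 21, with medians of -0.29 and -0.59. In cells without Foxp3 the regulatory list had 20 of 25 on that side, beside 48.6% of all measured genes in those cells. Ctla4 was at 955 and 854 CPM in cycling against 1764 and 1800 CPM in non-cycling cells with Foxp3, Tnfrsf18 at 306 and 269 against 507 and 467, and Itgae at 46.3 and 27.6 against 139 and 94.0. Ikzf2 differed less, at 950 and 985 against 1164 and 1227 CPM. Foxp3 itself stood at 121 and 116 CPM in cycling and 271 and 307 CPM in non-cycling cells. Each cell of the class holds at least 1 Foxp3 UMI by choice, and 1 UMI weighs more CPM in a shallow cell. How much of the Foxp3 difference comes from this was not tested. The non-cycling cells with Foxp3 had medians of 4971 and 4801 UMIs, against 16192 and 20863 in the cycling ones. Class II-high barcodes held 9.90% and 9.18% of the UMIs of the non-cycling cells and 24.4% and 15.3% of those of the cycling ones. The values of this comparison are given with those barcodes only.

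Between the libraries, a single histone gene differed by a like amount in both Foxp3 classes. Hist1h2ap, a replication-dependent histone H2A gene, stood at 234 CPM (200 to 272) in WT NOD members with Foxp3 and at 62.8 CPM (49.4 to 78.8) in those of the other library, a log2 ratio of -1.74. In members without Foxp3 it fell from 232 (214 to 251) to 64.3 CPM (55.6 to 73.9), a ratio of -1.70. Cycling CD8 T cells held 363 and 107 CPM. No other measured histone passed 2-fold. The list medians were -0.04 over 32 genes with Foxp3 and -0.05 over 48 without, and histone genes lie in clusters of near-identical copies between which reads can be split. Stmn1, a regulator of microtubules, was at 573 and 283 CPM with Foxp3 and 527 and 275 CPM without, ratios of -0.99 and -0.92 that stayed under 2-fold. The 2 Foxp3 classes of a library were prepared together, so agreement between them is not a second measurement of the libraries.

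In cells with Foxp3, 47 of 6439 measured genes were higher (0.73%) and 52 lower (0.808%) in the library labelled NOD.Cxcl16-/-, and many of the largest ratios came from a few cells. Ccl5, a chemokine of effector T cells, fell from 1126 CPM (1050 to 1205) to 230 CPM (203 to 258), a ratio of -2.24 that was -2.51 without the class II-high barcodes. It was found in 26 of 38 and 24 of 50 cells, and 1 cell held 34.3% and 29.6% of its UMIs. Tnf was at 72.1 and 16.8 CPM, but 83.0% of its UMIs in the WT NOD library lay in class II-high barcodes and the ratio was -0.08 without them. Cxcl13, a chemokine that attracts B cells, was at 6.81 and 119 CPM, from 4 of 50 cells in the second library, 1 of them holding 56.3% of the UMIs. Havcr2 (TIM-3), an inhibitory receptor, was at 16.3 and 58.6 CPM, and its ratio of 1.38 was 1.75 without the class II-high barcodes.

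For lists of growth genes in the same class, the values of most members lay on the same side. All 14 measured glycolysis genes had higher values in the library labelled NOD.Cxcl16-/-, with a median log2 ratio of 0.48 beside 0.01 over all genes, and none passed 2-fold. The median over all genes lies near no change, so about as many of them were higher as lower. Gapdh was at 1228 and 1740 CPM, Ldha, which makes lactate, at 543 and 860, and Pkm, the last enzyme of glycolysis, at 401 and 622. The nucleotide-synthesis list had 17 of 20 genes higher with a median of 0.42, and the S list 33 of 42 with a median of 0.25. Of the S list 1 gene passed 2-fold, Cdca7, which recruits Hells to chromatin, at 31.3 CPM (19.8 to 47.0) and 79.6 CPM (64.4 to 97.3). The G2M list had a median of -0.18. In members without Foxp3 the same lists had medians of -0.06 (glycolysis), -0.06 (nucleotide synthesis), -0.12 (S) and 0.12 (G2M). The difference between the Foxp3 classes was not tested. Cells with Foxp3 were also deeper in the second library, 20863 against 16192 UMIs at the median, and the part of depth in these medians was not tested. Class II-high barcodes held 24.4% and 15.3% of the UMIs of the cells with Foxp3, and these medians are given with those barcodes only.

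In cells without Foxp3, 14 of 8947 genes were higher (0.156%) and 16 lower (0.179%) in the library labelled NOD.Cxcl16-/-. These counts rest on 129 and 150 cells and those with Foxp3 on 38 and 50, and their order was not kept at every setting. With 50 CPM added they were 2 and 4 with Foxp3 and 1 and 5 without, and after thinning 24 and 13 with and 46 and 24 without. Penk, the precursor of the opioid enkephalin peptides, fell from 197 CPM (180 to 215) to 65.3 CPM (56.5 to 74.9), a ratio of -1.46 that was -1.69 without the class II-high barcodes, with 25.8% and 29.9% of its UMIs in 1 cell. Several large ratios rested on 1 cell. Gzma, at 11.8 and 55.2 CPM, had 86.5% of its UMIs of the second library in 1 cell, and the secreted phosphoprotein Spp1, at 13.7 and 157 CPM, had 50.1%. Ccl5 was at 346 (323 to 369) and 329 CPM (309 to 349) here, a ratio of -0.07, and -0.93 without the class II-high barcodes. The type I interferon-induced gene Ifit1 was at 14.4 and 1.62 CPM, with 89.5% of the UMIs of the WT NOD library in class II-high barcodes. The insulin genes Ins1 and Ins2, products of the beta cells around these leukocytes, were past 2-fold in both classes but in opposite directions, higher with Foxp3 and lower without in the library labelled NOD.Cxcl16-/-. The 6 islet hormone markers summed to 32.7 and 125 CPM with Foxp3 and 973 and 188 CPM without.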

How the data were processed

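Gene-by-barcode matrices of 2 libraries, made by the authors with Cell Ranger 7.0.1 on mm10 per the submitters' processing notes, were used as deposited: raw UMI counts with no normalization. Rows sharing a symbol were summed (38 symbols). Barcodes with at least 500 genes and at most 10% mitochondrial UMIs were kept (12252 and 10214), at medians of 4269 and 5189 UMIs. UMIs were summed per class and scaled to the sum's total. Log2 ratios have 10 CPM added, and genes needed 20 UMIs in 1 sum of each pair. With 1 library per group no test was run. Intervals are exact Poisson for CPM and Clopper-Pearson for shares. The rule and gene lists were chosen with earlier results of these data known. Genes named are list members, and outside the lists the 12 largest ratios in each direction with at least 50 UMIs in the higher sum, leaving out receptor segments, ribosomal, mitochondrial and hormone genes, with exceptions stated. B-cell barcodes had 2 or more Cd79a UMIs, Ms4a1, and no Cd3 or gate UMI. The limit on gate UMIs was dropped only for the share of B-cell barcodes that passed the cycling gate. Doublets were left in apart from the lineage gates. The automatic threshold of Scrublet (scanpy 1.11.5) marked 0 and 2 barcodes and did not work, so the alternative removes the highest scores, 0.8% of barcodes per 1000 (1201 and 835 barcodes, 20 and 31 of them members). Alternatives also covered the gates, pseudocount, UMI floor, scaling, thinning to 2000 UMIs, and, added after the data were seen, leaving out MHC class II-high barcodes or each gene's highest cell. The code for the ratio calls was checked before use on simulated counts with planted changes larger than the 2-fold threshold. Those counts held no spread between cells, so the check covers the code and not the calls in these data.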

Additional observations from a re-analysis of the deposited data

Results flagged for a closer look

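Ccl5 had ratios of opposite sign between the Foxp3 classes of cycling cells in the 2 libraries, which is what set it apart. Its log2 ratio, cells with a Foxp3 UMI over cells without, was 1.68 for WT NOD and -0.50 for the second library, labelled NOD.Cxcl16-/-. Without the MHC class II-high barcodes the ratios were 1.29 and -0.29. Of the 26 WT NOD cells with both transcripts, 1 held 34.3% of the Ccl5 UMIs. The difference was not tested.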

How the results depend on the processing

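The size of the main values depended on the gates and on the pseudocount, and the cause was not tested beyond what each setting's own construction shows (fewer cells, fewer UMIs or fewer genes). Pairs give WT NOD first. With at least 3 gate UMIs the cycling share without Foxp3 was 6.73% and 7.74%, that with Foxp3 in the second library 15.4%, and its G2M shares 69.9% with and 68.3% without Foxp3. With at least 1 the cycling shares were 39.2% and 39.0% with Foxp3 and 20.8% and 22.8% without, and the G2M shares 72.5% and 67.9% with Foxp3 and 63.9% and 67.1% without. With no Cd79a, C1qa or Lyz2 UMI the G2M share with Foxp3 was 77.4% in the first library. Thinned, the cycling shares were 9.59% and 4.31% with Foxp3 and 3.44% and 4.94% without, the G2M shares 84.8% and 79.6% with and 65.5% and 71.5% without, and the Foxp3 shares of cycling cells 13.0% and 6.58%. Without the class II-high barcodes the G2M shares of the first library were 75.3% with and 64.0% without Foxp3, and the cycling share without Foxp3 in the second was 9.31%.

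Counts of genes past 2-fold, higher then lower, moved as follows. At a pseudocount of 1 CPM they were 62 and 48 between Foxp3 classes, 159 and 133 between libraries with Foxp3, 112 and 95 without, and 20 genes were lower in cycling cells. At 50 CPM they were 6 and 0, 2 and 4, 1 and 5, and in cycling cells 60 and 0. A floor of 50 UMIs gave 16 and 11 between libraries with Foxp3 and 109 higher in cycling cells, and a floor of 1 UMI gave 91 lower between libraries with Foxp3. Scaling by the median of ratios gave 15 lower between Foxp3 classes and 3 in cycling cells, and averaging over barcodes gave 21 and 3. Removing the highest doublet scores gave 66 lower between Foxp3 classes, 71 and 124 between libraries with Foxp3, and 12 lower in cycling cells. Thinning gave 9 and 15 between Foxp3 classes, 24 and 13 between libraries with Foxp3, 46 higher without, and 26 and 2 in cycling cells. Leaving out class II-high barcodes gave 12 lower between Foxp3 classes and 9 in cycling cells. Leaving out each gene's highest cell gave 19 and 32 between Foxp3 classes, 21 lower between libraries with Foxp3, 7 and 8 without, and 12 lower in cycling cells. Of genes kept as values, Mir155hg between libraries with Foxp3 turned from -1.05 to 0.063 without the class II-high barcodes. Other settings left these counts within 1.5 times.

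No paired analysis was possible because each group has 1 library. Low counts limit the values with Foxp3, which rest on 38 and 50 cells.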

Other observations

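T-cell receptor segments of the alpha chain were read in a part of the cycling CD4 T cells, and 1 segment was the most frequent of them. A Trav UMI was found in 25 of 38 and 23 of 50 members with Foxp3 and in 64 of 129 and 77 of 150 without, against 0.236% and 0.254% of B-cell barcodes. Of the members with any Trav UMI, Trav5-4 was found in 8 of 25 (32.0%, interval 14.9 to 53.5%) and 11 of 23 (47.8%, 26.8 to 69.4%) with Foxp3. Without Foxp3 it was found in 13 of 64 (20.3%, 11.3 to 32.2%) and 31 of 77 (40.3%, 29.2 to 52.1%). Non-cycling CD4 T cells had 22.9% and 32.5% with Foxp3 and 23.9% and 31.8% without, within the intervals of the members in each class. In cycling CD8 T cells it was found in 5.45% (3.01 to 8.97%) and 9.38% (4.38 to 17.1%). In WT NOD members without Foxp3 another segment, Trav16n, was close to Trav5-4, in 12 of 64 (18.75%, 10.1 to 30.5%). The annotation holds Trav5d-4 and Trav5n-4, near copies of Trav5-4 between which reads can be split, so the identity of Trav5-4 is uncertain.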
